A study of Mus musculus with 6 samples.

Results

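Heparan sulfate proteoglycans and the sulfatases that edit their sugar chains were examined in MEFs, the fibroblasts that grow out of mouse embryos in culture. The group consisted of 10 genes taken by symbol from the 17092 genes of the count table, namely the extracellular sulfatases *Sulf1* and *Sulf2*, the glypicans *Gpc1*, *Gpc3*, *Gpc4* and *Gpc6*, and the syndecans *Sdc1*, *Sdc2*, *Sdc3* and *Sdc4*. They were selected on their counts in this comparison of genotypes, whose results were known when the set was chosen. Their differences between the genotypes are therefore given as a description, without p-values. All 10 members passed the filter on low counts, which kept 13075 genes.

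RNA-seq was done on MEFs from WT mice and from *Aff3ir-ORF2*-/- mice, with 3 libraries of each genotype. The *Aff3ir-ORF2*-/- line was made by injecting Cas9 mRNA and guide RNAs into fertilized eggs, with homozygous animals bred from germline carriers, so the knockout is not limited to fibroblasts. The labels name no treatment, age or strain for these cultures. *Aff3ir* is a gene nested within *Aff3*, and *Aff3ir-ORF2* is one of its protein products. The labels do not say whether the libraries of a genotype came from separate embryos or cultures, so the errors below measure the spread between these libraries, which may be technical. Total counts were 17435133 to 17726034 in WT and 18209421 to 18252330 in *Aff3ir-ORF2*-/- libraries. The biological coefficient of variation, the spread between replicates beyond counting noise, was 0.0184 in WT and 0.0996 in *Aff3ir-ORF2*-/- MEFs, and 0.064 in the latter without replicate 2. *Aff3ir* was not analysed here. *Aff3*, the parent gene, had 406, 406 and 418 counts per library in WT, compared with 229, 186 and 209 in *Aff3ir-ORF2*-/-, and how reads of the nested gene were counted is not given in the sources used here.

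Heparan sulfate is a long sugar chain attached to a small set of core proteins at the cell surface and in the matrix. Its sulfate groups bind growth factors, morphogens and matrix proteins, and the positions of the sulfates set which ligands are held. Glypicans are anchored in the membrane by a lipid, syndecans cross the membrane and reach the cytoskeleton, and SULF1 and SULF2 are secreted enzymes that take 6-O-sulfates off finished chains outside the cell. Fibroblasts carry members of each family, and their chains take part in Wnt, FGF, Hedgehog and BMP signalling and in adhesion to fibronectin.

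Promoter windows, 250 bases before to 50 after a gene's start, were read for the members with an entry in the RefSeq table of GRCm38.p6, which held 6 of the 10. The windows of *Gpc3* and *Gpc4* are shown because these glypican genes lie next to each other on the X chromosome, with 0 genes between them in that table, and differed in opposite directions. The windows of *Sdc1* and *Sdc4* are shown as those of the syndecans with the smallest and the largest difference between the genotypes. Capitals mark each GC box, the letters GGGCGG on either strand, which is the sequence that Sp family factors bind.
*Gpc3* promoter, chrX:52613925-52614224, minus strand: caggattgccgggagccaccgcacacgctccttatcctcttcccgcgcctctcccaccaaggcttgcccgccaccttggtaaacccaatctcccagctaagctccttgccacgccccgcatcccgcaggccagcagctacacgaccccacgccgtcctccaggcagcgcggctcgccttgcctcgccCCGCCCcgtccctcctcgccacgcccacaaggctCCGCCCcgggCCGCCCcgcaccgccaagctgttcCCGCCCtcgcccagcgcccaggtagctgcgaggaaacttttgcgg
*Gpc4* promoter, chrX:52164874-52165173, minus strand: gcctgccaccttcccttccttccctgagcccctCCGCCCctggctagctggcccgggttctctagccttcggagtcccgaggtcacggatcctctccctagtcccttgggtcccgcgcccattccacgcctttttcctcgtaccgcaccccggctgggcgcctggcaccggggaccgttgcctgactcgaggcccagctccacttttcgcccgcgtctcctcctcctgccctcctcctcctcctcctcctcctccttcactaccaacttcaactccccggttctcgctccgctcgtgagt
*Sdc1* promoter, chr12:8771146-8771445, plus strand: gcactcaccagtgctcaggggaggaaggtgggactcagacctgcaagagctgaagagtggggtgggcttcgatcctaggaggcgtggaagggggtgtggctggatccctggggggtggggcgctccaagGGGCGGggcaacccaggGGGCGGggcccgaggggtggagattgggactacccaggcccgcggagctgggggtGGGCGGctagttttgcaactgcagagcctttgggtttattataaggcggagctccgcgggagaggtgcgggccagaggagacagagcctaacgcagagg
*Sdc4* promoter, chr2:164443139-164443438, minus strand: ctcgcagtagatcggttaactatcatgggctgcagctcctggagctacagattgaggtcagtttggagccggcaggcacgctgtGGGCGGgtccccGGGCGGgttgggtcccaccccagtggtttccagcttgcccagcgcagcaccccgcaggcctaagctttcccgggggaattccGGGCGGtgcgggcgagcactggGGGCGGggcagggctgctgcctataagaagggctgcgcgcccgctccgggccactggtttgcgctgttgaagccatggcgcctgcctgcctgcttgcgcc
The GC box was found 4 times in the *Gpc3* window, 1 time in the *Gpc4* window, 3 times in the *Sdc1* window and 4 times in the *Sdc4* window, while 35.6% of the 32817 promoter windows of the table held at least 1. The G and C content was 70.7% for *Gpc3*, 66.7% for *Gpc4*, 66.3% for *Sdc1* and 67.7% for *Sdc4*, against a median of 52.7% over all windows. The TATA box (TATAAA), the AP-1 site (TGANTCA) and the EGR site (GCGTGGGCG), searched on both strands, had 0 matches in these 4 windows. Over all windows, 13.6% held the TATA box, 7.81% the AP-1 site and 0.612% the EGR site. These matches describe letters only. The submitters' processing notes name the build mm8, so the coordinates above belong to the reference table and not to the deposited counts.

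Counts were scaled to library size with edgeR's TMM method and are given as CPM, that is, per 1e6 counts of a library, and genotypes were compared over all genes with edgeR's quasi-likelihood test. A gene was called at a Benjamini-Hochberg adjusted p under 0.05 together with a change of at least 1.5-fold. Of the 10 members, 6 were past both thresholds, as were 21.4% of all tested genes. They were 3 on the higher side in *Aff3ir-ORF2*-/- MEFs, where the share over all tested genes was 14.2%, and 3 on the lower side, where it was 7.27%. Since this comparison chose the members, nothing is read from these counts. An adjusted p under the threshold at any fold was reached by 8 members and by 56.8% of all tested genes. Past both thresholds were *Sulf1*, *Sdc4* and *Gpc4* on the higher side and *Gpc3*, *Gpc1* and *Gpc6* on the lower side. *Sdc2* and *Sdc3*, both higher, were under the adjusted p threshold but short of 1.5-fold. The values of the genotypes did not overlap for 8 members, as for 66.0% of all tested genes, and overlapped for *Sulf2* and *Sdc1*. The median log2 fold change was 0.17 over the members and 0.01 over all tested genes.

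**Figure D1:**
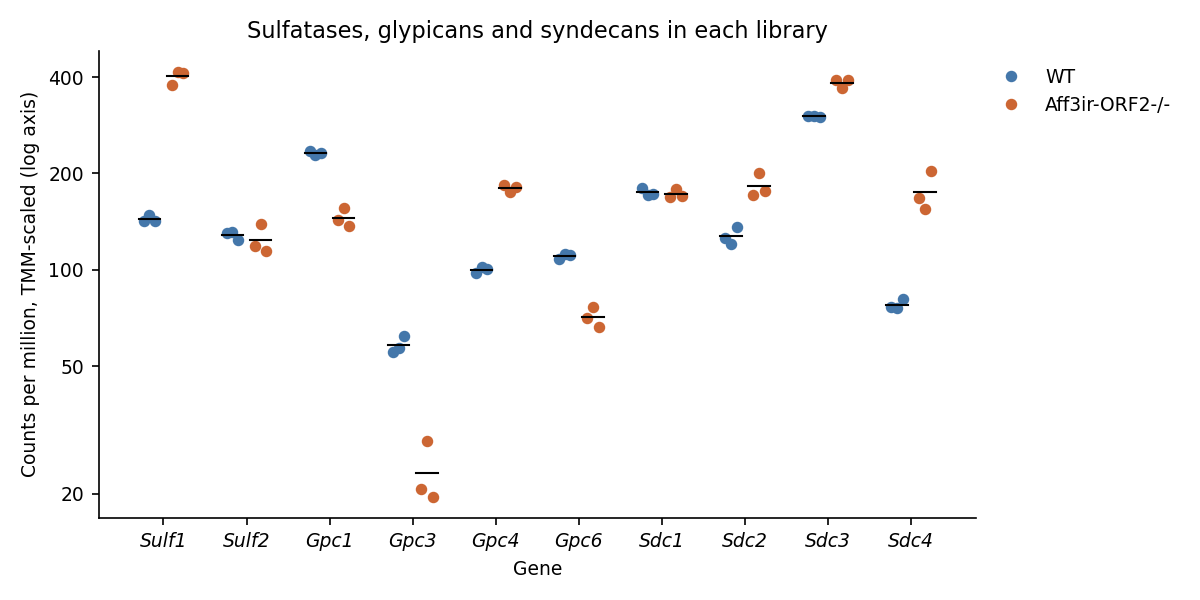
CPM of each of the 10 genes on a log axis, with 1 point per library, WT in blue and *Aff3ir-ORF2*-/- in orange, and a line at the mean of the 3 libraries of a genotype. The means of *Sulf1* are 144 and 402 CPM and those of *Gpc3* 58.2 and 23.1 CPM, while the points of *Sulf2* and *Sdc1* overlap.

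The sulfatases differed from each other. *Sulf1* (gene ID 240725) had 2444, 2603 and 2473 counts in the libraries of WT (replicates 1 to 3, in this order throughout) and 6901, 7729 and 7555 in those of *Aff3ir-ORF2*-/-. Every *Aff3ir-ORF2*-/- library was far above every WT library. The scaled level was 144 ± 3.71 CPM in WT and 402 ± 19.9 CPM without *Aff3ir-ORF2* (SD, n = 3 for this and all values below), which is 2.79-fold on the linear and 1.48 on the log2 scale (standard error 0.05). This was the largest difference among the members, and it lay between 1.45 and 1.52 over the 17 alternative settings tried. *Sulf2* (gene ID 72043), which removes the same sulfate group, had 2245, 2301 and 2172 counts per library in WT, compared with 2161, 2589 and 2104 in *Aff3ir-ORF2*-/-. *Aff3ir-ORF2*-/- replicate 2 was above all WT libraries and the other two were below them once scaled. The means were 128 ± 3.61 and 124 ± 13.03 CPM, a log2 fold change of -0.05 (standard error 0.07), with a 95% interval of 0.866-fold to 1.08-fold.

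The make-up of the pair was unlike in the genotypes. The ratio of *Sulf1* to *Sulf2* counts was 1.09, 1.13 and 1.14 in the WT libraries and 3.19, 2.98 and 3.59 in the *Aff3ir-ORF2*-/- libraries. *Sulf1* took 52.8% ± 0.604 of the counts of both sulfatases in WT and 76.4% ± 1.67 in *Aff3ir-ORF2*-/- MEFs. In counts per kb of transcript it took 47.8% ± 0.605 and 72.6% ± 1.85, so that *Sulf2* had the larger share in WT. The summed level of the pair was 272 ± 6.54 CPM in WT and 526 ± 28.1 CPM in *Aff3ir-ORF2*-/- MEFs (SD, n = 3 each).

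Among the glypicans, *Gpc4* was higher and the other members were lower in *Aff3ir-ORF2*-/- MEFs. *Gpc4* (gene ID 14735), a glypican of mesenchyme and neural tissue that binds Wnt and FGF ligands, had 1685, 1795 and 1759 counts per library in WT, compared with 3353, 3255 and 3327 in *Aff3ir-ORF2*-/-. The libraries of each genotype lay close together and far from those of the other. The level was 100.2 ± 2.23 CPM in WT and 180.04 ± 4.83 CPM in *Aff3ir-ORF2*-/- MEFs, a log2 fold change of 0.85 (standard error 0.04), or 1.80-fold.

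*Gpc3* (gene ID 14734), whose loss causes overgrowth in mice and humans, stands beside *Gpc4* on the chromosome. It had 956, 1004 and 1082 counts per library in WT, compared with 376, 543 and 359 in *Aff3ir-ORF2*-/-. All *Aff3ir-ORF2*-/- libraries were below WT, and replicate 2 was the highest of them. This was 58.2 ± 3.37 against 23.1 ± 5.25 CPM, a log2 fold change of -1.33 (standard error 0.14), or 2.51-fold lower, and -1.54 without *Aff3ir-ORF2*-/- replicate 2. The ratio of *Gpc4* to *Gpc3* counts was 1.76, 1.79 and 1.63 in WT and 8.92, 5.99 and 9.27 in *Aff3ir-ORF2*-/- libraries.

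*Gpc1* (gene ID 14733), a widely expressed glypican that can hold FGF and VEGF ligands, had 4062, 4021 and 4054 counts per library in WT, compared with 2600, 2912 and 2515 in *Aff3ir-ORF2*-/-, with no overlap. Its level was 232 ± 3.43 against 145 ± 9.88 CPM, a log2 fold change of -0.68 (standard error 0.05), or 1.60-fold lower. The deposited *Gpc1* value was not a whole number in 5 of the 6 libraries, while those of the other members were whole. *Gpc6* (gene ID 23888), which is known for a role in growth plate cartilage, had 1869, 1968 and 1945 counts per library in WT, compared with 1288, 1429 and 1215 in *Aff3ir-ORF2*-/-, again with no overlap. Its level was 111 ± 1.90 against 71.2 ± 5.26 CPM, a log2 fold change of -0.63 (standard error 0.06), or 1.55-fold lower, which is just past the 1.5-fold threshold.

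Of the glypicans that were not members, *Gpc2* was counted 153 to 162 times in WT and 112 to 158 times in *Aff3ir-ORF2*-/- libraries, a difference of -0.27 on the log2 scale (adjusted p = 0.1, edgeR). *Gpc5* had 1 count in 1 library and 0 in the other 5. Over all 6 glypicans the summed level was 510.0 ± 4.75 CPM in WT and 427 ± 16.9 CPM in *Aff3ir-ORF2*-/- MEFs (SD, n = 3 each). *Gpc4* made 19.6% ± 0.390 of glypican counts in WT and 42.2% ± 2.60 in *Aff3ir-ORF2*-/- MEFs, and *Gpc1* made 45.5% ± 0.900 and 34.0% ± 0.965. *Gpc3* went from 11.4% ± 0.552 to 5.39% ± 1.00, and *Gpc6* from 21.7% ± 0.299 to 16.7% ± 0.575. *Gpc1* thus had the largest share of glypican counts in WT and *Gpc4* in *Aff3ir-ORF2*-/- MEFs.

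**Figure D2:**
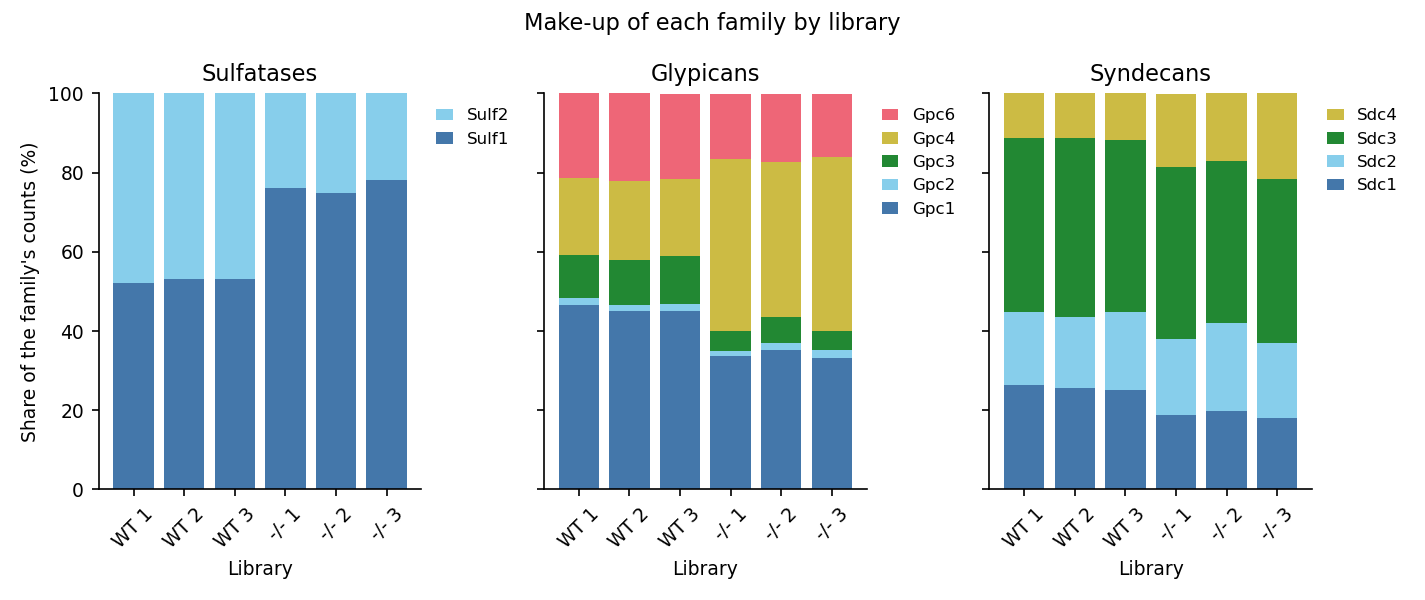
Share of each family's counts taken by each gene, in percent, with 1 stacked bar per library, the 3 WT libraries on the left and the 3 *Aff3ir-ORF2*-/- libraries on the right of each panel (*Gpc5*, with 1 count, is not drawn). *Sulf1* takes 52.8% of the sulfatase counts in WT and 76.4% in *Aff3ir-ORF2*-/- MEFs on average, *Gpc4* 19.6% and 42.2% of the glypican counts, and *Sdc4* 11.4% and 19.1% of the syndecan counts.

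Among the syndecans, none was past both thresholds on the lower side, and *Sdc4* was past both thresholds on the higher side. *Sdc4* (gene ID 20971), the syndecan of focal adhesions that acts with integrins on fibronectin, had 1320, 1331 and 1411 counts per library in WT, compared with 3044, 2877 and 3731 in *Aff3ir-ORF2*-/-. All *Aff3ir-ORF2*-/- libraries were above WT, with replicate 3 the highest. The level was 77.7 ± 2.71 against 175 ± 25.4 CPM, a log2 fold change of 1.17 (standard error 0.10), or 2.25-fold.

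*Sdc2* (gene ID 15529), a syndecan of mesenchymal cells, had 2169, 2115 and 2371 counts per library in WT, compared with 3126, 3748 and 3243 in *Aff3ir-ORF2*-/-. The groups did not overlap, and the difference from 127 ± 7.81 to 183 ± 15.8 CPM was 1.44-fold, just short of 1.5-fold (log2 fold change 0.53, standard error 0.07). *Sdc3* (gene ID 20970), best known from the nervous system, had the most counts of the syndecans, with 5201, 5330 and 5231 in WT and 7109, 6879 and 7184 in *Aff3ir-ORF2*-/- libraries. It too did not overlap, at 301 ± 1.89 against 384 ± 12.5 CPM, 1.27-fold (log2 fold change 0.35, standard error 0.04).

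*Sdc1* (gene ID 20969), the main syndecan of epithelia and plasma cells, had 3104, 3019 and 3018 counts per library in WT, compared with 3075, 3331 and 3130 in *Aff3ir-ORF2*-/-. The scaled values overlapped, at 175 ± 4.52 and 173 ± 5.31 CPM, a difference of -0.02 on the log2 scale (standard error 0.04) with a 95% interval of 0.923-fold to 1.06-fold. The sign of this value turned under upper quartile scaling and with total counts only. *Sdc4* made 11.4% ± 0.286 of syndecan counts in WT and 19.1% ± 2.28 in *Aff3ir-ORF2*-/- MEFs, and *Sdc1* made 25.7% ± 0.620 and 18.9% ± 0.845. The summed level of the family was 681 ± 9.19 CPM in WT and 915 ± 24.0 CPM in *Aff3ir-ORF2*-/- MEFs (SD, n = 3 each).

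**Figure D3:**
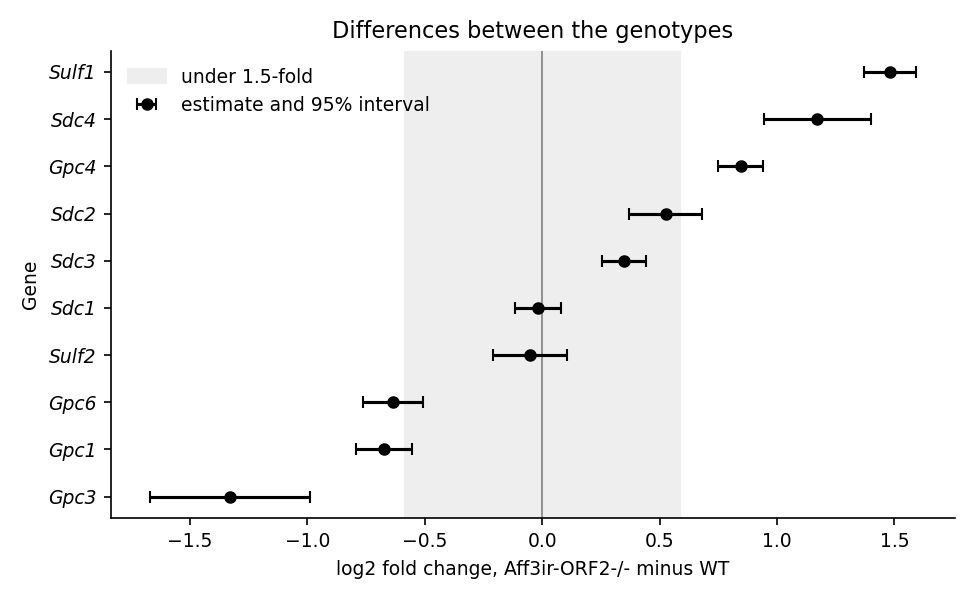
log2 fold change of each member, *Aff3ir-ORF2*-/- minus WT, as a point with its 95% interval from edgeR's quasi-likelihood fit of 3 libraries against 3; the grey band covers changes under 1.5-fold. *Sulf1* stands at 1.48 and *Gpc3* at -1.33, the ends of the range, and the intervals of *Sulf2* and *Sdc1* cover 0.

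Levels were compared between genes per length, as CPM per kb of the longest GENCODE M21 transcript, which all 10 members had. In WT MEFs *Sdc3* was highest at 60.6 ± 0.381 CPM per kb, followed by *Gpc1* at 55.6 ± 0.822 and *Sdc1* at 55.4 ± 1.43, which overlapped. *Gpc4* (37.8 ± 0.842) and *Sdc2* (36.1 ± 2.21) overlapped as well and stood above *Sdc4* (31.6 ± 1.10) and *Sulf2* (28.1 ± 0.788). The lowest levels were those of *Gpc6* (26.7 ± 0.457), *Gpc3* (26.2 ± 1.52) and *Sulf1* (25.7 ± 0.662), whose neighbours in this order overlapped. In WT MEFs the members thus lay within a 2.36-fold range.

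In *Aff3ir-ORF2*-/- MEFs the mean of *Sdc3* was again the highest, at 77.2 ± 2.52 CPM per kb, but *Sdc4*, at 62.8 to 82.7 CPM per kb, spanned the 3 *Sdc3* values. *Sulf1*, in place 10 in WT, was in place 2 at 71.8 ± 3.55, and it overlapped with *Sdc4* at 71.2 ± 10.3, which overlapped with *Gpc4* at 67.9 ± 1.82. *Sdc1* (54.7 ± 1.68) and *Sdc2* (51.9 ± 4.47) overlapped too. Below them, without overlap between neighbours, came *Gpc1* (34.8 ± 2.37), *Sulf2* (27.1 ± 2.84), *Gpc6* (17.2 ± 1.27) and *Gpc3* (10.4 ± 2.37).

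The other genes of the heparan sulfate pathway were taken from 7 lists with 70 genes, of which 63 passed the filter on low counts. Of these, 8 rose and 5 fell in *Aff3ir-ORF2*-/- MEFs past both thresholds, while the shares over all tested genes were 14.2% and 7.27%. Among the called genes, *Srgn* and *Hs6st3* had passed the filter only through the libraries of the genotype where they were high. The median log2 fold change of the tested list genes was 0.07. Without *Aff3ir-ORF2*-/- replicate 2, 7 were higher and 8 lower, the added ones being *Extl1*, *Hs3st5* and *Cask*, named here after their values were seen. *Extl1* and *Hs3st5* then passed the filter only through the WT libraries, where they were high, so nothing is read from their calls.

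Of the 12 genes that build the linker and polymerize the chain, 0 passed both thresholds by edgeR, also at an unadjusted p under 0.05. The count was 0 by DESeq2 or limma too. At any fold, 4 were under the adjusted p threshold, as were 56.8% of all tested genes. Without *Aff3ir-ORF2*-/- replicate 2, 1 was called lower (*Extl1*), which then passed the filter only through the WT libraries. *Ext1* and *Ext2*, which together form the chain polymerase, had log2 fold changes of 0.07 and 0.06 (standard error 0.05 each). Of the 12 tested genes for chain modification, 3 fell by edgeR and 0 rose by edgeR, DESeq2 or limma. The edgeR shares over all tested genes were 7.27% lower and 14.2% higher. On the higher side 1 gene was called at an unadjusted p under 0.05, and 1 without WT replicate 2 or without WT replicate 3. *Ndst3*, 1 of the N-deacetylase N-sulfotransferases that start sulfation, had 221, 202 and 211 counts per library in WT, compared with 56, 69 and 50 in *Aff3ir-ORF2*-/-. All *Aff3ir-ORF2*-/- libraries were below WT, and the difference was -1.93 on the log2 scale (standard error 0.13, adjusted p = 3.71e-06). *Ndst1*, the list's gene with the most counts and of the same function, was at 278 ± 3.69 and 284 ± 13.8 CPM (log2 fold change 0.03, adjusted p = 0.56).

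*Glce*, the epimerase that turns glucuronic into iduronic acid, had 3421, 3493 and 3408 counts per library in WT, compared with 2296, 2683 and 1911 in *Aff3ir-ORF2*-/-, or -0.66 on the log2 scale (standard error 0.11, adjusted p = 0.00144). Its change was under 1.5-fold without *Aff3ir-ORF2*-/- replicate 3 (-0.55). The 6-O-sulfotransferases add the sulfate that the SULF enzymes remove. *Hs6st3* was low, with 29, 33 and 30 counts per WT library and 7, 3 and 1 per *Aff3ir-ORF2*-/- library. *Hs6st3* passed the filter on low counts only through the WT libraries, so its difference is a description, given without a p-value. Its log2 fold change was -3.10 (standard error 0.42), and it was -3.94 without *Aff3ir-ORF2*-/- replicate 1 and -2.67 without replicate 3. *Hs6st2*, named after its values were seen, was much more abundant and had 1954, 1957 and 2111 counts per library in WT, compared with 3060, 2908 and 3120 in *Aff3ir-ORF2*-/-. Its level went from 115 ± 5.01 to 165 ± 7.54 CPM, 1.43-fold (adjusted p = 3.07e-05), which is short of the 1.5-fold threshold. *Hs6st1*, named for the same reason, was at 67.9 ± 0.793 and 57.2 ± 16.5 CPM, a difference within the replicate error (adjusted p = 0.349). *Hs2st1*, which sulfates position 2 of the uronic acid, was at 209 ± 2.01 and 189 ± 18.9 CPM (adjusted p = 0.1).

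The list of heparanases and lysosomal enzymes of heparan sulfate breakdown had 5 of 10 tested genes higher and 0 lower past both thresholds. The shares over all tested genes were 14.2% and 7.27%. The median log2 fold change of the list was 0.51. *Hpse*, the heparanase that cuts chains outside the cell and in lysosomes, had 58, 62 and 64 counts per library in WT, compared with 130, 207 and 212 in *Aff3ir-ORF2*-/-. All *Aff3ir-ORF2*-/- libraries were above WT, and the change was 2.82-fold (standard error 0.19 on the log2 scale, adjusted p = 1.62e-04). *Hgsnat* and *Naglu*, lysosomal enzymes that act on the glucosamine at the chain end, rose by 1.65-fold and 1.63-fold (adjusted p = 1.69e-05 and 3.15e-05). *Arsk*, a lysosomal sulfatase, rose 1.54-fold (adjusted p = 7.84e-04) and was under 1.5-fold without *Aff3ir-ORF2*-/- replicate 2 (log2 fold change 0.52) and without WT replicate 1 (0.58). *Gusb*, the lysosomal beta-glucuronidase, was at 125 ± 2.13 and 123 ± 6.95 CPM (adjusted p = 0.765), and its sign turned under upper quartile scaling and with total counts only. With a 2-fold threshold, *Hpse* alone of this list was called.

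Among other proteoglycans, 2 of 8 tested genes rose and 2 fell past both thresholds, while 14.2% and 7.27% of all tested genes did. *Agrn* (agrin) fell from 122 ± 1.98 to 59.6 ± 7.55 CPM (log2 fold change -1.03, standard error 0.08, adjusted p = 1.45e-05), and *Col18a1* (collagen XVIII) fell from 111 ± 2.001 to 63.5 ± 11.1 CPM (-0.81, standard error 0.12, adjusted p = 0.00103). *Hspg2* (perlecan), like them a basement membrane proteoglycan, was at 1834 ± 22.1 and 1859 ± 57.4 CPM (adjusted p = 0.741). *Nrp1* (neuropilin 1) rose from 186 ± 8.67 to 288 ± 27.3 CPM (adjusted p = 7.49e-05), but was under 1.5-fold without *Aff3ir-ORF2*-/- replicate 1 or 3 (log2 fold change 0.58 in each case). *Srgn* (serglycin, the intracellular proteoglycan of blood cells) had 0, 4 and 3 counts per WT library and 62, 78 and 80 per *Aff3ir-ORF2*-/- library. *Srgn* passed the filter on low counts only through the *Aff3ir-ORF2*-/- libraries, so its difference is a description, given without a p-value. Its log2 fold change was 4.83 (standard error 0.42). With so few WT counts the value was 5.42 without WT replicate 2 and 4.27 without WT replicate 1. *Cd44*, some of whose forms carry heparan sulfate, was at 1198 ± 19.4 and 1156 ± 219 CPM (adjusted p = 0.758).

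Of the 8 genes for sulfate and sugar donors, *Ugdh*, which makes UDP-glucuronic acid, was the 1 called, while 21.4% of all tested genes were. *Ugdh* had 3416, 3290 and 3548 counts per library in WT, compared with 5685, 4306 and 6779 in *Aff3ir-ORF2*-/- (log2 fold change 0.63, standard error 0.17, adjusted p = 0.0224). It was not called without the filter on low counts (0.62), without WT replicate 2 or 3, or without *Aff3ir-ORF2*-/- replicate 1 or 3 (log2 fold changes 0.60, 0.66, 0.61 and 0.47). *Ugp2*, which makes UDP-glucose, went from 80.7 ± 1.92 to 95.96 ± 3.74 CPM, 1.19-fold (adjusted p = 0.00152). *Sumf1*, the enzyme that activates sulfatases by making their formylglycine, went from 75.5 ± 2.50 to 98.1 ± 4.19 CPM, 1.30-fold (adjusted p = 1.71e-04), and *Sumf2* was at 25.9 ± 0.629 and 24.8 ± 0.924 CPM (adjusted p = 0.374). Among 11 tested genes for release of ectodomains and syndecan partners, 0 passed both thresholds by edgeR, also at an unadjusted p under 0.05. By DESeq2 or limma the count was 0 as well. At any fold, 4 were under the adjusted p threshold, as were 56.8% of all tested genes. The lowest value was that of *Cask*, a scaffold protein that binds syndecan tails, at -0.56 on the log2 scale or 1.48-fold lower (adjusted p = 0.00138), and it was past 1.5-fold without WT replicate 1 (-0.59) and without *Aff3ir-ORF2*-/- replicate 2 (-0.68). *Mmp14*, a membrane protease that can shed syndecans, differed by 0.11 on the log2 scale (adjusted p = 0.235), and *Sdcbp* (syntenin), which binds the syndecan tails, by 0.27 (adjusted p = 3.41e-04).

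**Figure D4:**
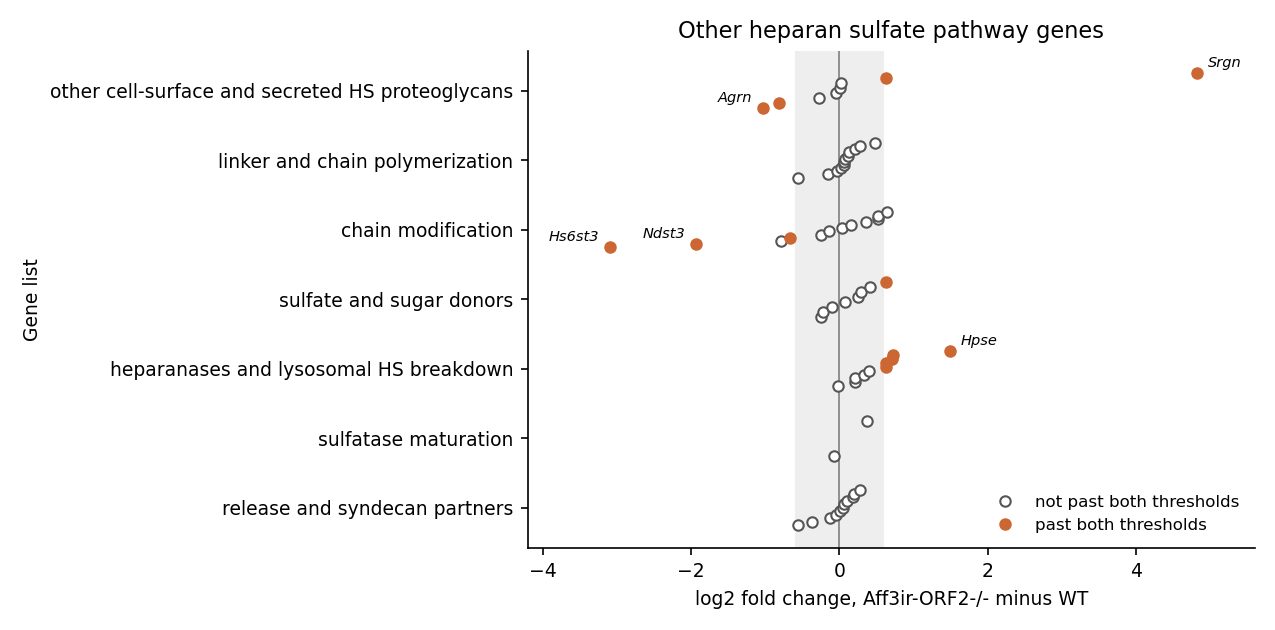
log2 fold change, *Aff3ir-ORF2*-/- minus WT, of the 63 tested genes of 7 heparan sulfate (HS) pathway lists, with 1 point per gene; filled points are past both thresholds, the grey band covers changes under 1.5-fold, and points beyond 2-fold that passed are named. *Srgn* at 4.83 and *Hs6st3* at -3.10 are the ends, and 5 filled points of the breakdown list lie on the higher side.

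Markers of cell types were compared between the genotypes as a description, and the lists did not move alike. Over all tested genes, 14.2% were called higher and 7.27% lower. All 14 macrophage markers listed were higher past both thresholds in *Aff3ir-ORF2*-/- MEFs. Of them, 4 had at most 3 counts in every WT library. Markers that low in WT passed the filter only through the *Aff3ir-ORF2*-/- libraries. So did *Adgre1*, *Tyrobp*, *Fcer1g* and *Ptprc*, which fell short of 10 counts in some WT libraries. Nothing is read from the calls of any of these markers. The summed level of the 14 was 19.7 to 23.3 CPM in WT and 1312 to 2240 CPM in *Aff3ir-ORF2*-/- libraries. *C1qa* and *C1qb*, both in this list, were at 0 in every WT library. Of 8 smooth muscle markers, 6 were higher, with sums of 4506 to 4613 and 7530 to 8241 CPM. The others were *Smtn*, lower without overlap but short of 1.5-fold (log2 fold change -0.45), and *Lmod1*, which overlapped (-0.10). Of 12 fibroblast markers, 2 were higher and 0 lower past both thresholds, with sums of 28380 to 28450 and 24770 to 30880 CPM and no marker at 0. The log2 fold change was positive for 6 and negative for 6. Among abundant markers, *Col1a1* (-0.49), *Col1a2* (-0.41) and *Vim* (-0.39) were lower and *Fn1* (0.45) was higher, all short of 1.5-fold. Of 6 endothelial markers in the table, 4 were tested, with 2 higher and 1 lower and sums of 7.66 to 8.47 and 14.1 to 19.9 CPM. The lower one, *Cdh5*, had 15, 18 and 22 counts per WT library and 9, 10 and 12 per *Aff3ir-ORF2*-/- library. It passed the filter only through the WT libraries, so nothing is read from its call. Of 8 epithelial markers 1 was tested and not called, with sums of 4.18 to 4.92 and 3.65 to 5.44 CPM. The part of these cell types in the differences of the members, and of *Srgn* and the breakdown genes, was not tested, and in bulk RNA more cells of a type and more RNA per cell cannot be told apart.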

How the data were processed

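Bulk RNA-seq of WT and *Aff3ir-ORF2*-/- MEFs was used, in 3 libraries of each genotype. The authors had paired-end DNBSEQ reads filtered with SOAPnuke and deposited a table of estimated counts, without normalization; the aligner and counter are not given in the sources used here, and the submitters' processing notes name the build mm8. The estimated counts were rounded to whole numbers, reduced to genes that pass edgeR's filterByExpr (version 4.0.16, at least 10 counts and a total of 15), scaled by TMM and tested with edgeR's robust quasi-likelihood test without covariates in R 4.3.3. Standard errors were taken as the absolute log2 change over the square root of F. Total counts were 17435133 to 18252330 per library, and intervals follow the spread between libraries.

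The members and lists were chosen with earlier results of these data known. Named were all members, the called genes of each pathway list (up to 6 by adjusted p) and its 2 genes with the most counts. Other genes are said to be named after their values were seen, and 1 gene that the rule names is not reported here. Pairs of libraries of 1 genotype differed by more than counting noise (chi-square over degrees of freedom 1.38 or more), so none was treated as a copy. Lengths came from GENCODE M21 and promoters from RefSeq (GRCm38.p6). On simulated counts with 199 of 13036 tested genes changed 3-fold, the test called all 199 and 2 others. The simulation gave both genotypes the same dispersion and far fewer changed genes than were called in the data. It therefore checks that the code runs as intended and gives no error rate for these data. Alternatives used DESeq2 1.42.0 and limma 3.58.1. Figures were drawn with matplotlib 3.10.9.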

Additional observations from a re-analysis of the deposited data

How the results depend on the processing

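Over 17 alternatives, the log2 fold change of each member other than *Sulf2* and *Sdc1* kept its sign, and 161 of 170 member values kept sign and call. With a 2-fold threshold 2 members were higher (not *Gpc4*) and 1 lower, and with a test against a 1.5-fold change 3 and 1. The 7 lists then had 2 genes higher and 3 lower under either setting, and over all genes 1096 were higher and 317 lower with 2-fold, and 1074 and 410 in the test against 1.5-fold. Leaving out 1 library in turn gave 3 members higher and 3 lower each time, 6 to 8 pathway genes higher and 4 to 8 lower (8 without *Aff3ir-ORF2*-/- replicate 2). These 8 include *Extl1* and *Hs3st5*, which then passed the filter only through the WT libraries. Signs turned only for values near 0, namely *Sulf2* (0.0016 without *Aff3ir-ORF2*-/- replicate 3), *Sdc1* (0.021 with upper quartile scaling, 0.012 with total counts, 0.0059 without WT replicate 1), *Hspg2* (-0.0065 without *Aff3ir-ORF2*-/- replicate 3), *Cd44* (0.094 without *Aff3ir-ORF2*-/- replicate 2, adjusted p = 0.0112, range 0.0112 to 1), *Ndst1* (-0.0047 without *Aff3ir-ORF2*-/- replicate 1) and *Gusb* (0.019 with upper quartile scaling, 0.010 with total counts, 0.013 without *Aff3ir-ORF2*-/- replicate 1). Leaving out 1 library in turn, these ranged from -0.14 to 0.0016 (*Sulf2*), -0.047 to 0.0059 (*Sdc1*), -0.0065 to 0.036 (*Hspg2*), -0.14 to 0.094 (*Cd44*), -0.0047 to 0.066 (*Ndst1*) and -0.065 to 0.013 (*Gusb*). Other scalings moved the median of all genes by under 0.1, to 0.04 at most.

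In counts per kb, a choice made after seeing the data, *Gpc4* gained 26.0 percentage points of its family in place of 22.6, and *Sdc4* 10.6 in place of 7.69. *Sulf1* gained 24.8 in place of 23.6. Without length correction *Sdc3* was 2.10 times *Sulf1* in WT, in place of 2.36. Same-numbered libraries shared little (correlation of deviations 0.0145 to 0.0424), although each correlated best with its own number, a hint from the data. With the replicate number as a block 1854 genes were higher and 954 lower, and 3 members were higher and 3 lower. Depth did not limit the members, all with at least 359 counts per library, but 7 pathway genes were too low to test.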

Other observations

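*Aff3ir-ORF2*-/- replicate 2, singled out after its values were seen, was often the nearest to WT among the members. Of the 8 members whose genotypes did not overlap, this library was the nearest of the 3 to the WT mean in 6 (*Gpc1*, *Gpc3*, *Gpc4*, *Gpc6*, *Sdc3* and *Sdc4*), on the higher and on the lower side alike, and *Aff3ir-ORF2*-/- replicate 1 was nearest for *Sulf1* and *Sdc2*. Over the 8628 genes without overlap, replicate 2 was the nearest for 26.9% and replicate 1 for 37.2%. Relative to the geometric mean of the other two *Aff3ir-ORF2*-/- libraries, replicate 2 differed by 0.54 on the log2 scale for *Gpc3*, 0.25 for *Sulf2* and -0.26 for *Sdc4*. The value for *Sdc2* was 0.21, which lies away from WT. Smaller values were those of *Gpc1* and *Gpc6* (0.16 each), *Sdc1* (0.08), *Sulf1* (0.07), *Gpc4* (-0.06) and *Sdc3* (-0.08). The same library held 28211 counts of *Col3a1*, a fibrillar collagen of fibroblasts, against 10648 and 15093 in replicates 1 and 3. These are descriptions of 1 library, and what sets it apart was not tested.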
